A study of Mus musculus with 6 samples.

Results

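The genes described here are 40 genes of the cell division cycle, followed in the mouse pituitary gland at postnatal day 7 (P7), while the gland is still growing, and in the adult. They were chosen by name and role, and the value of a gene is the sum over its annotated transcripts. The 40 genes are among 50348 gene names listed in the 6 tables. By their place in the cycle they form 4 groups: 9 genes of G1 and S phase entry, 9 of DNA replication, 19 of G2 and mitosis, and 3 inhibitors of cyclin-dependent kinases (CDKs).

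The study sequenced RNA of pituitary cells to catalogue long non-coding RNAs, and the same libraries hold messenger RNA. The P7 Tshbcre library came from 5 pooled glands, and 3 adult sorted libraries came from 42 Tshbcre, 12 Ghcre and 7 Lhbcre pooled glands. All 4 carried a Cre driver and a Cre-activated ROSA YFP reporter, and RNA was made from the fluorescent cells sorted by FACS. The P7 whole-gland library came from 8 nontransgenic glands and the adult whole-gland library from 1 nontransgenic gland, and adults were 7 weeks old. Tshbcre, Ghcre and Lhbcre express Cre from the genes of the thyrotropin beta subunit, growth hormone and the luteinizing hormone beta subunit, which mark thyrotropes, somatotropes and gonadotropes. Such a reporter also stays on in any cell, and its daughters, in which the driver was once active. The labels give the dispersal and sort text for every sample, also for the nontransgenic glands, which carry no reporter, and list those as all pituitary cells. With 1 library for each group there is no replicate, and none of the differences below could be tested.

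A dividing cell passes through G1, copies its DNA in S phase, and separates the copies in mitosis after G2. D-type cyclins with Cdk4 or Cdk6, then E-type cyclins with Cdk2, lead into S phase by releasing E2F transcription factors from the retinoblastoma protein family, and CDK inhibitors hold these kinases back. Genes of G2 and mitosis are switched on later, by NF-Y at CCAAT boxes and by B-Myb and FoxM1 at an element called CHR, and are kept off in resting cells by the DREAM complex. In rodents the anterior pituitary grows in the weeks after birth, when hormone cells and their Sox2-expressing progenitors both divide, and divides little in the adult.

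Values are FPKM (fragments per length of transcript and per mapped fragments of the library) divided by 1 scaling factor per library, called scaled FPKM. Differences are P7 minus adult on the scale of log2(scaled FPKM + 1); this scale shrinks the differences of genes at low levels. A member was called at 4-fold or more on that scale, or at a looser 2-fold, if its higher library reached 1 scaled FPKM. Between the ages, a gene under 1 in the adult library thus passed only through P7 and could not be called lower at P7. Taking the depth of adult whole gland as 1, that of the other libraries was 1.15 in P7 Tshbcre, 1.16 in adult Tshbcre, 2.23 in adult Lhbcre, 2.73 in adult Ghcre and 1.21 in P7 whole gland. The Ghcre table ends within chromosome 5 and lists 29 of the 40 genes. Tshb stood at 3001 scaled FPKM in P7 Tshbcre and 1075 in adult Tshbcre, against 61.0 in P7 whole gland and 33.1 in adult whole gland. Lhb stood at 1278 in P7 Tshbcre and 2905 in adult Tshbcre, beside 2198 in adult Lhbcre, so the Tshbcre fractions held gonadotrope transcripts as well. Prl, the lactotrope hormone, stood at 21.7 in P7 Tshbcre and 6547 in adult Tshbcre, and at 82.6 in P7 whole gland and 17590 in adult whole gland. Gh, the growth hormone gene, stood at 3870 in P7 Tshbcre and 14810 in adult Tshbcre.

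Of the replication and mitosis genes with a RefSeq promoter window, the 6 with the largest P7 over adult difference in whole gland are shown by the 150 bases before their annotated start, 5′ to 3′ in the direction of the gene. They are given as examples. Capitals mark matches, on either strand, to the CHR element (TTTGAA or TTCAAA), the CCAAT box (CCAAT or ATTGG) and an E2F site (TTCCCGC, the variant TTGGCGC, the variant TTCGCGC, the variant TTGCCGC, or the reverse complement of any of them).
Top2a: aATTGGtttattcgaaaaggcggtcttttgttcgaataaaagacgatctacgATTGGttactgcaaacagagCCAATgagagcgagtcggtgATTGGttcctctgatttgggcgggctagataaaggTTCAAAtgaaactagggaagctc
Mki67: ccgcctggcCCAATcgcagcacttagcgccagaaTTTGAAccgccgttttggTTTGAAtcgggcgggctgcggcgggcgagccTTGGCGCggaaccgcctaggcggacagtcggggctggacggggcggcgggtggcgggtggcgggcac
Ccnb2: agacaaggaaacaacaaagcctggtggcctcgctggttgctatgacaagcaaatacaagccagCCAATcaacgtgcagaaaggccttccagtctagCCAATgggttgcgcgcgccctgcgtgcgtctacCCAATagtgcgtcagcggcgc
Rrm2: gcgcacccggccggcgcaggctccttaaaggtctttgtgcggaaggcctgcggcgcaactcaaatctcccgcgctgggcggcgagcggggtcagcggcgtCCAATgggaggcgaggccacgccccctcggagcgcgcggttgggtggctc
Birc5: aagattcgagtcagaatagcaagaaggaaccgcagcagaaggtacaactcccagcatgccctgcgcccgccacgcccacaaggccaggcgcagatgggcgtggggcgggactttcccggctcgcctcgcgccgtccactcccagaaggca
Mcm2: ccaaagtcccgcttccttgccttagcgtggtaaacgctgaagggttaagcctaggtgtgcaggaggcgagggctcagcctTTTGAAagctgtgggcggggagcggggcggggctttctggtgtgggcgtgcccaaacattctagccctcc
The sequences are from RefSeq on GRCm38.p6, an older build than the mm39 of the expression files. They lie at chr11:99024190-99024339 for Top2a, chr7:135716380-135716529 for Mki67, chr9:70421555-70421704 for Ccnb2 and chr6:88898781-88898930 for Mcm2, all on the minus strand, and at chr12:24708104-24708253 for Rrm2 and chr11:117849087-117849236 for Birc5, both on the plus strand. The printed Top2a stretch holds a CHR match in its last 23 bases, downstream of 4 CCAAT matches, and the Mki67 stretch holds 2 CHR matches as well as CCAAT and an E2F match. Ccnb2 has 3 CCAAT matches, Rrm2 has 1, Mcm2 has a CHR match, and Birc5 has no match in these 150 bases. The last 4 letters of ATTGG are also the first 4 of TTGGCGC, so matches to those forms can overlap.

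Windows of 300 bases, 250 before and 50 after the start, were found for 32 of the 40 genes. No window was matched for Ccnd1, Ccnd2, Ccne2, Mcm4, Ccna2, Foxm1, Tpx2 and Aurkb. CHR was present in 11 of 15 windows of mitosis genes (73.3%), in 1 of 8 of replication genes, in 0 of 6 of G1 genes and in 18.1% of all 27025 gene windows. CCAAT was present in 14 of 15 mitosis windows, 7 of 8 replication windows, 1 of 6 G1 windows and 37.9% of all. An E2F match was present in 3 of 15 mitosis windows, 5 of 8 replication windows (62.5%), 1 of 6 G1 windows and 9.69% of all. CHR and CCAAT stood together in the same 11 mitosis windows, against 7.12% of all. These are matches of letters and no measure of binding, and the windows are fixed by the annotation rather than by these libraries.

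The mitosis genes were higher at P7 than in the adult in both preparations. Their 19 levels added up to 40.8 scaled FPKM in P7 Tshbcre against 6.11 in adult Tshbcre, a ratio of 6.68, and to 76.8 in P7 whole gland against 9.84 in adult whole gland, a ratio of 7.80. Of the 19, 4 were listed at 0 in adult Tshbcre and 1 in adult whole gland. With unnamed assembled transcripts added to their genes in proportion to length, the ratios were 5.90 in Tshbcre and 7.51 in whole gland. All 19 were above their adult value in each comparison. The median log2 difference was 1.55 in whole gland and 1.13 in Tshbcre over all 19, while the median over all genes at 1 scaled FPKM or more was 0.02 in each. Over all 40 genes the median was 1.26 in whole gland and 0.81 in Tshbcre. The replication genes were higher by less, the G1 genes were divided, and the D-type cyclins were lower at P7 in both comparisons.

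**Figure D1:**
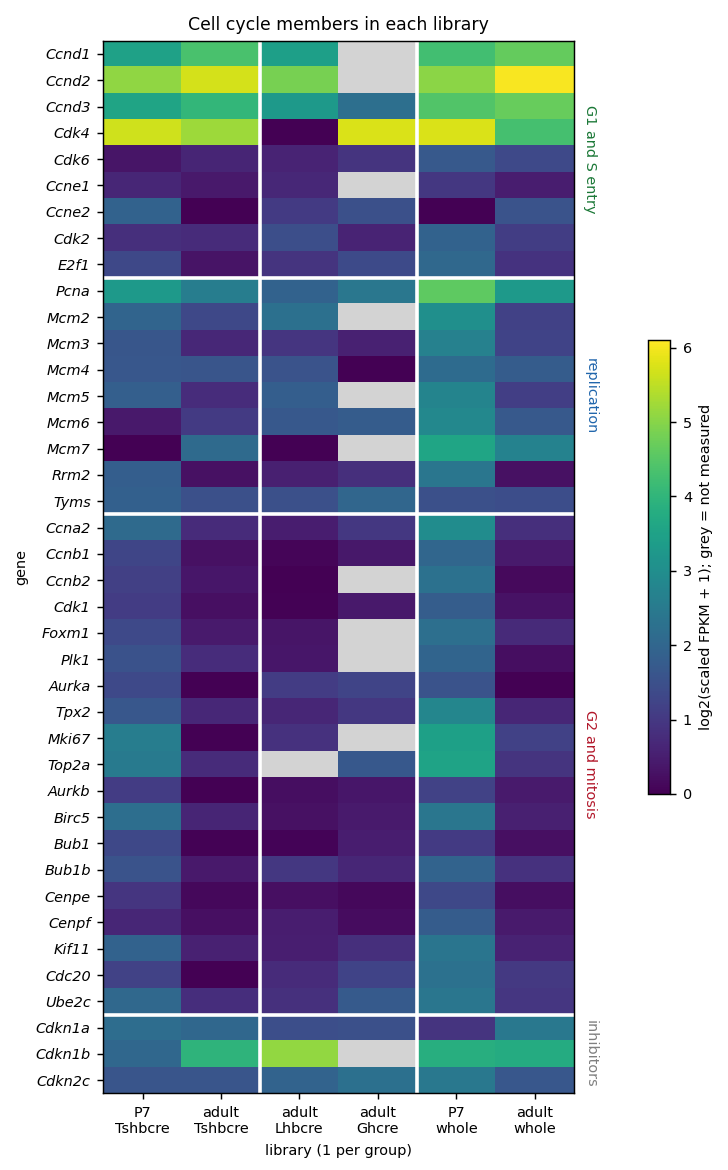
Level of each of the 40 genes (rows, by place in the cycle) in each of the 6 libraries (columns), as log2(scaled FPKM + 1). Grey marks genes not measured. Most of the mitosis block is brighter in P7 Tshbcre and P7 whole gland than in the adult libraries, with Aurka and Cdc20 in adult Ghcre near P7 Tshbcre, while the D-type cyclins and Cdk4 are bright in most libraries of both ages.

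Counted over the list, 6 of 40 genes were at least 4-fold higher in P7 whole gland than in adult whole gland (15.0%), where 3.32% of all 15676 genes compared were. These were Rrm2, Ccna2, Ccnb2, Tpx2, Mki67 and Top2a. None was 4-fold lower, beside 3.27% of all genes. At 2-fold, 25 were higher (62.5%, all genes 9.98%) and 2, Ccne2 and Cdkn1a, were lower (all genes 9.41%). Of the 19 mitosis genes, 17 were under 1 in adult whole gland and could not have been called lower. With genes at 0 in a library left aside, the same 6 genes remained of 38, beside 0.513% of all genes. With assembled transcripts added to their genes in proportion to length, 4 genes were 4-fold higher (Ccna2, Tpx2, Mki67 and Top2a, all genes 2.21%) and 26 were 2-fold higher (all genes 6.16%). The deposited FPKM bounds of the 2 ages were apart, with P7 higher, for 33 of the 40 genes, beside 30.6% of all genes, and with P7 lower for 5, beside 30.6% of all genes.

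In sorted Tshbcre cells, 35 of the 40 genes reached 1 scaled FPKM in a library. At 4-fold, 1 was higher (Mki67, all genes 3.58%) and 1 lower (Mcm7, all genes 4.64%), and both rest on a value of 0 in the lower library. At that threshold the members' share of 2.86% in each direction was below the background. At 2-fold, 16 of 35 were higher (45.7%, all genes 11.5%) and 2, Mcm7 and Cdkn1b, were lower (5.71%, all genes 12.9%). All 19 mitosis genes were under 1 in adult Tshbcre. The 17 of them that passed did so through P7 alone and could not have been called lower, and they gave 12 of the 16 calls. With genes at 0 left aside, 11 of 29 were 2-fold higher (37.9%, all genes 5.98%) and none was 4-fold higher (all genes 0.624%). With assembled transcripts added by length, 16 of 37 were 2-fold higher (all genes 6.61%) and none was 4-fold higher (all genes 2.28%). Deposited bounds were apart with P7 higher for 26 of 35, beside 31.2% of all genes, and with P7 lower for 6, beside 30.4%.

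Mki67 encodes the Ki-67 protein, which coats mitotic chromosomes and serves as the standard mark of cycling cells. It stood at 4.96 scaled FPKM in P7 Tshbcre and was listed at 0 in adult Tshbcre, and it stood at 10.1 in P7 whole gland against 1.28 in adult whole gland. An assembled transcript without a name lay in its locus in the adult Tshbcre table, and with such transcripts added in proportion to their length adult Tshbcre stood at 0.79, a log2 difference of 1.74. Mki67 was thus higher at P7 both ways, but its 4-fold call in sorted cells was not.

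Top2a, the topoisomerase that untangles replicated chromosomes, had the largest difference in whole gland. It stood at 4.62 in P7 Tshbcre against 0.67 in adult Tshbcre (log2 difference 1.75) and at 10.5 in P7 whole gland against 0.90 in adult whole gland (2.60). The gene lies at chr11:98883773-98915037 on mm39. In adult Ghcre it stood at 2.20, above the other adult libraries in which it was measured and below both P7 libraries. Its estimate failed in adult Lhbcre.

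The mitotic cyclins and their kinase differed alike. Ccna2, cyclin A2, which acts in S phase and G2, stood at 3.31 in P7 Tshbcre against 0.70 in adult Tshbcre (1.34) and at 6.76 in P7 whole gland against 0.77 in adult whole gland (2.13). Ccnb1, a cyclin B that drives entry into mitosis, stood at 1.40 in P7 Tshbcre against 0.20 in adult Tshbcre (1.0) and at 3.07 in P7 whole gland against 0.35 in adult whole gland (1.59). Ccnb2 stood at 1.22 in P7 Tshbcre against 0.28 in adult Tshbcre (0.79) and at 3.81 in P7 whole gland against 0.11 in adult whole gland (2.12). For all 3 cyclins the lowest P7 level was above the highest adult level, other sorted fractions included, though Ccnb2 was not measured in adult Ghcre. Cdk1, the mitotic kinase these cyclins activate, stood at 1.11 in P7 Tshbcre against 0.19 in adult Tshbcre (0.83) and at 2.46 in P7 whole gland against 0.22 in adult whole gland (1.5). Foxm1, the transcription factor of the G2 programme, stood at 1.54 in P7 Tshbcre against 0.36 in adult Tshbcre (0.90) and at 3.70 in P7 whole gland against 0.65 in adult whole gland (1.51).

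The kinases and motors that build the spindle were also higher at P7. Plk1, a kinase of mitotic entry and spindle assembly, stood at 1.89 in P7 Tshbcre against 0.71 in adult Tshbcre (0.75) and at 2.93 in P7 whole gland against 0.17 in adult whole gland (1.75). Tpx2, which activates Aurora A on spindle microtubules, stood at 2.15 in P7 Tshbcre against 0.59 in adult Tshbcre (0.99) and at 5.91 in P7 whole gland against 0.57 in adult whole gland (2.14). Kif11, the motor that pushes spindle poles apart, stood at 2.81 in P7 Tshbcre against 0.48 in adult Tshbcre (1.36) and at 4.15 in P7 whole gland against 0.49 in adult whole gland (1.79). In each of these genes both P7 libraries were above both adult libraries. Aurka, Aurora A itself, stood at 1.53 in P7 Tshbcre and 1.93 in P7 whole gland and was listed at 0 in adult Tshbcre and adult whole gland. It stood at 1.38 in adult Ghcre and 1.12 in adult Lhbcre, close to the P7 sorted level, so the 2 ages were not apart for Aurka over all adult libraries.

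Birc5, survivin, and Aurkb, Aurora B, belong to the chromosomal passenger complex, which corrects kinetochore attachments. Birc5 stood at 3.64 in P7 Tshbcre against 0.54 in adult Tshbcre (1.59) and at 4.28 in P7 whole gland against 0.46 in adult whole gland (1.86). Aurkb stood at 1.14 in P7 Tshbcre with adult Tshbcre listed at 0, and at 1.29 in P7 whole gland against 0.36 in adult whole gland (0.75). For Aurkb in whole gland the difference was 1.81 with assembled transcripts added by length. Birc5 was nearly as high in sorted P7 cells as in P7 whole gland, and Aurkb likewise on its annotated transcripts.

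Bub1 and Bub1b are kinases of the checkpoint that waits for all kinetochores to be attached. Bub1 stood at 1.51 in P7 Tshbcre against 0.03 in adult Tshbcre (1.28) and at 1.05 in P7 whole gland against 0.18 in adult whole gland (0.79). It was the 1 mitosis gene of 19 with a higher level in P7 Tshbcre than in P7 whole gland. Bub1b stood at 1.94 in P7 Tshbcre against 0.34 in adult Tshbcre (1.13) and at 2.85 in P7 whole gland against 0.83 in adult whole gland (1.08). Cenpe, a kinetochore motor, and Cenpf, a large kinetochore protein, were among the lowest genes, at 0.91 and 0.58 in P7 Tshbcre against 0.10 and 0.18 in adult Tshbcre. In P7 whole gland they stood at 1.49 and 2.40, against 0.17 and 0.35 in adult whole gland. By length, with assembled transcripts added, the log2 difference of Cenpf in Tshbcre was 1.56 rather than 0.42.

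Cdc20 and Ube2c drive exit from mitosis through the anaphase-promoting complex. Cdc20 stood at 1.31 in P7 Tshbcre with adult Tshbcre listed at 0, and at 3.80 in P7 whole gland against 1.03 in adult whole gland (1.24). Ube2c stood at 3.20 in P7 Tshbcre against 0.73 in adult Tshbcre (1.28) and at 4.26 in P7 whole gland against 0.95 in adult whole gland (1.43). In adult Ghcre Cdc20 stood at 1.32, level with P7 Tshbcre, and Ube2c at 2.34, between the P7 and the other adult libraries.

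**Figure D2:**
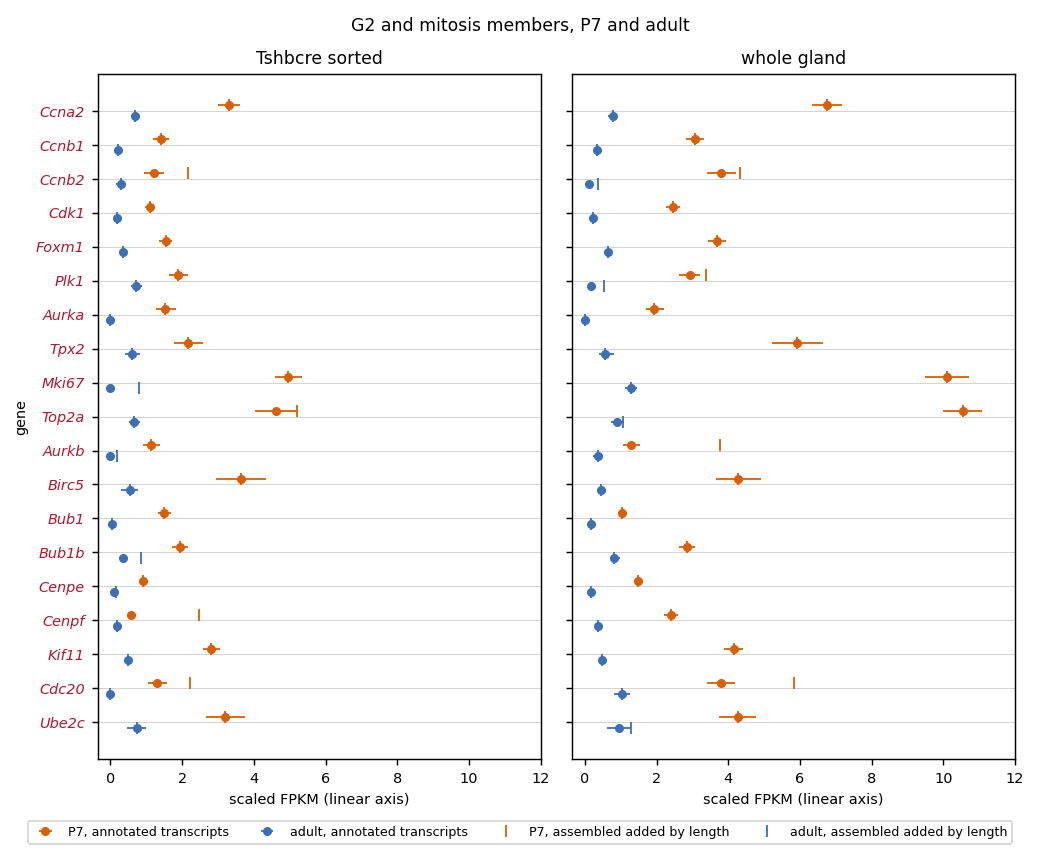
Scaled FPKM (linear axis) of the 19 G2 and mitosis genes in Tshbcre sorted cells (left) and whole gland (right), with P7 above adult for each gene. Points are annotated transcripts, bars span the deposited FPKM bounds, which are an error within 1 library and not between animals, and ticks add assembled transcripts by length. Every P7 point lies to the right of its adult point in both panels.

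The replication genes were higher in P7 whole gland without exception and less evenly so in sorted cells. All 9 were above their adult value in whole gland, with a median log2 difference of 1.29, and 7 of 9 were in Tshbcre, with a median of 0.65. Their levels added up to 24.1 in P7 Tshbcre against 16.3 in adult Tshbcre, and to 67.9 in P7 whole gland against 24.7 in adult whole gland. The ratio of these sums was 1.48 in Tshbcre and 2.75 in whole gland. Mcm7, listed at 0 in P7 Tshbcre and at 3.35 in adult Tshbcre, lowers the Tshbcre ratio.

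Rrm2, the regulated subunit of the enzyme that makes deoxynucleotides, had the largest P7 excess of the group in both comparisons. It stood at 2.52 in P7 Tshbcre against 0.22 in adult Tshbcre (1.53) and at 4.27 in P7 whole gland against 0.22 in adult whole gland (2.11). Pcna, the sliding clamp of DNA polymerase, stood at 8.84 in P7 Tshbcre against 4.96 in adult Tshbcre (0.72) and at 22.8 in P7 whole gland against 8.79 in adult whole gland (1.28). Pcna was the highest of the 9 in all 4 of these libraries. Tyms, thymidylate synthase, was the least different in whole gland, at 2.67 in P7 Tshbcre against 1.81 in adult Tshbcre (0.39) and 1.82 in P7 whole gland against 1.72 in adult whole gland (0.05). In adult Ghcre Tyms stood at 3.07, above both P7 libraries.

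Mcm2 to Mcm7 encode the 6 subunits of the replicative helicase, which act as 1 ring. Their summed level was 10.1 in P7 Tshbcre against 9.28 in adult Tshbcre and 38.9 in P7 whole gland against 14.0 in adult whole gland. The Tshbcre sums include Mcm7, listed at 0 in P7 Tshbcre and at 3.35 in adult Tshbcre, so their closeness rests in part on that 0. In adult Lhbcre the sum was 11.3, above P7 Tshbcre, also with Mcm7 at 0. In whole gland all 6 were higher at P7, with log2 differences of 1.84 for Mcm2, 1.45 for Mcm3, 0.37 for Mcm4, 1.62 for Mcm5, 1.16 for Mcm6 and 0.88 for Mcm7. By length adult whole gland stood at 2.67 for Mcm2, and its difference was 1.15. In Tshbcre the subunits were divided. Mcm2, Mcm3 and Mcm5 were higher at P7, by 0.65, 0.95 and 1.06, and Mcm4 stood at 2.15 in P7 Tshbcre against 2.07 in adult Tshbcre. Mcm2 stood at 3.75 in adult Lhbcre, above the 2.89 of P7 Tshbcre. Mcm6 stood at 0.34 in P7 Tshbcre against 1.04 in adult Tshbcre (-0.61), and Mcm7 was listed at 0 in P7 Tshbcre and stood at 3.35 in adult Tshbcre. With assembled transcripts added by length the difference of Mcm6 was 0.26, above 0, while Mcm7 had no such transcript and also read 0 in adult Lhbcre.

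The G1 genes had no common direction: 5 of 9 were higher at P7 in each comparison, and the median log2 difference was 0.36 in whole gland and 0.08 in Tshbcre. The D-type cyclins, which couple growth signals to the cycle, were all lower at P7 in both comparisons. Ccnd2, the highest of them, stood at 33.2 in P7 Tshbcre against 51.4 in adult Tshbcre (-0.62) and at 32.1 in P7 whole gland against 64.9 in adult whole gland (-0.99). Ccnd1 stood at 10.2 in P7 Tshbcre against 19.2 in adult Tshbcre (-0.86) and at 18.0 in P7 whole gland against 24.1 in adult whole gland (-0.40). Ccnd3 stood at 10.9 in P7 Tshbcre against 15.4 in adult Tshbcre (-0.47) and at 20.6 in P7 whole gland against 24.5 in adult whole gland (-0.24). The deposited bounds of P7 and adult were apart for all 3 in both comparisons, although none differed 2-fold. Ccnd3 in Tshbcre turned to 0.12 once assembled transcripts were added by length. Together the 3 D-type cyclins made up 54.3 in P7 Tshbcre against 86.2 in adult Tshbcre and 70.7 in P7 whole gland against 113.5 in adult whole gland. The order did not hold over all adult libraries. In adult Lhbcre Ccnd1 stood at 9.80, Ccnd2 at 28.0 and Ccnd3 at 8.72, each below both P7 libraries. Ccnd3 stood at 3.71 in adult Ghcre (13.9 by length).

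Their partner Cdk4 was high in all but 1 library. It stood at 49.8 in P7 Tshbcre against 35.9 in adult Tshbcre (0.46) and at 53.1 in P7 whole gland against 18.7 in adult whole gland (1.46). With assembled transcripts added by length, adult whole gland stood at 44.9 and the difference there was 0.24, which is not 2-fold. Adult Lhbcre listed Cdk4 at 0, but its table held assembled transcripts in the locus worth 66.6. Cdk6, the alternative partner, was low throughout, at 0.27 in P7 Tshbcre against 0.55 in adult Tshbcre and 2.28 in P7 whole gland against 1.55 in adult whole gland. Cdk4 therefore exceeded Cdk6 in the 4 Tshbcre and whole-gland libraries, by 182-fold in P7 Tshbcre, 64.8-fold in adult Tshbcre, 23.3-fold in P7 whole gland and 12.1-fold in adult whole gland (29.0-fold there by length).

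The genes of S phase entry proper were low and mostly higher at P7 in the 2 comparisons. E2f1, the activator E2F, stood at 1.51 in P7 Tshbcre against 0.25 in adult Tshbcre (1.0) and at 3.14 in P7 whole gland against 0.84 in adult whole gland (1.17). Cdk2 stood at 0.76 in P7 Tshbcre against 0.67 in adult Tshbcre and at 2.75 in P7 whole gland against 1.15 in adult whole gland. Ccne1, cyclin E1, stood at 0.57 in P7 Tshbcre against 0.34 in adult Tshbcre and at 1.0 in P7 whole gland against 0.41 in adult whole gland. Of these, E2f1 passed 2-fold in both comparisons. Ccne2, cyclin E2, was listed at 0 in adult Tshbcre and in P7 whole gland, and stood at 2.76 in P7 Tshbcre and 1.94 in adult whole gland, which puts the 2 ages in opposite order in the 2 preparations.

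The 3 CDK inhibitors had no shared direction. Cdkn1b, p27, whose loss makes the pituitary of mice overgrow, stood at 3.12 in P7 Tshbcre against 14.6 in adult Tshbcre (-1.92) and at 13.3 in P7 whole gland against 12.4 in adult whole gland (0.09). The lower value in P7 Tshbcre depends on the transcripts counted: with assembled transcripts added by length it was 18.0 against 24.8 in adult Tshbcre (-0.44). Adult Lhbcre had the highest Cdkn1b, 33.6. Cdkn1a, p21, a target of p53, stood at 3.54 in P7 Tshbcre against 3.09 in adult Tshbcre (0.15) and at 0.88 in P7 whole gland against 4.41 in adult whole gland (-1.53). Its whole-gland difference was -0.38 with assembled transcripts added by length. Cdkn2c, p18, which inhibits Cdk4 and Cdk6, stood at 2.06 in P7 Tshbcre against 2.05 in adult Tshbcre (0.01) and at 4.47 in P7 whole gland against 2.14 in adult whole gland (0.80).

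**Figure D3:**
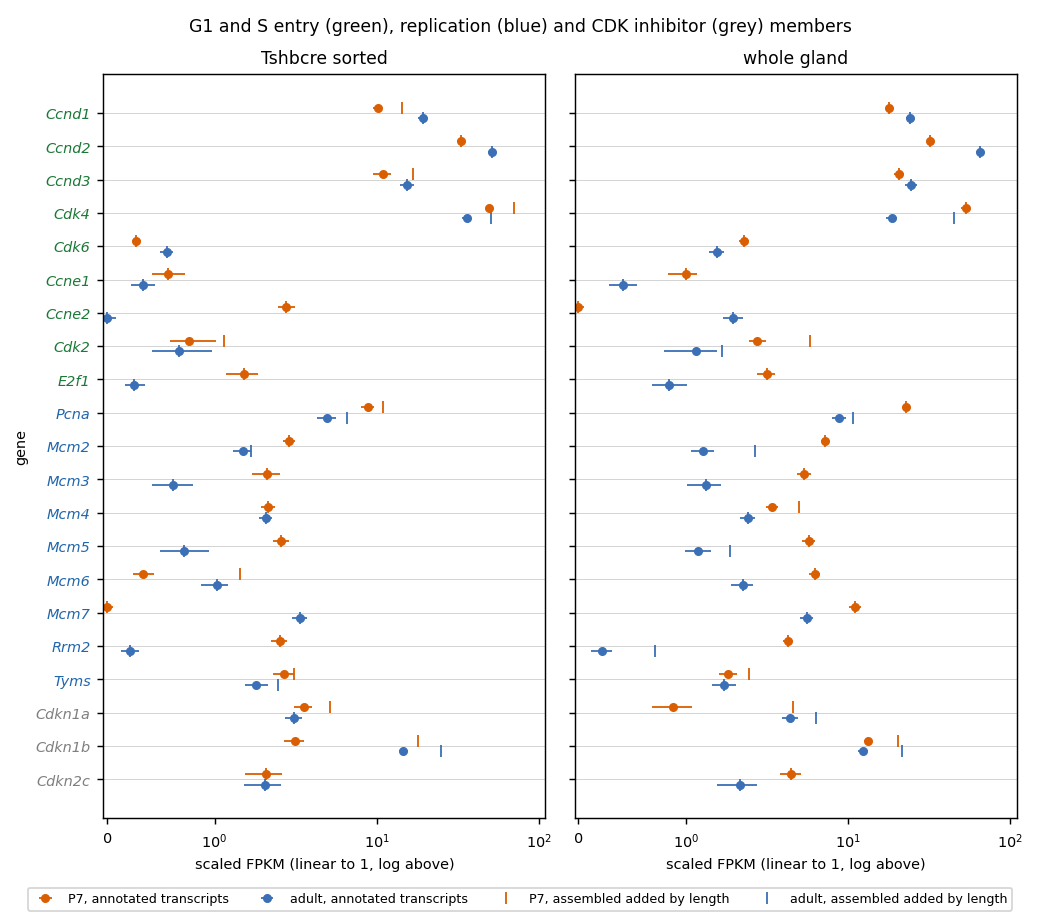
Scaled FPKM (axis linear to 1 and logarithmic above) of the G1, replication and CDK inhibitor genes in Tshbcre sorted cells (left) and whole gland (right), with P7 above adult for each gene. Points are annotated transcripts, bars the deposited bounds, and ticks add assembled transcripts by length. The D-type cyclins lie to the left at P7, most replication genes to the right, and the ticks bring Cdk4 in whole gland and Cdkn1b in Tshbcre close together at the 2 ages.

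Set side by side, the whole-gland and Tshbcre comparisons, which share no library, had the same sign for 34 of 40 genes (85%), beside 59.0% of the 13785 genes that reached 1 scaled FPKM in both. Of these, 31 were higher at P7 in both and 3, the D-type cyclins, were lower in both. The 6 of opposite sign were Cdk6, Ccne2, Mcm6, Mcm7, Cdkn1a and Cdkn1b. The 2 shares are over unlike sets, as all 40 genes were counted although 35 reached 1 in Tshbcre. Mitosis genes under 1 in the adult, 19 in Tshbcre and 17 in whole gland, could reach 1 only by being higher at P7. Taken with its sign, the P7 minus adult difference was greater in whole gland than in Tshbcre for 32 of 40 genes (80%), beside 51.1% of those 13785, and the 32 include genes lower at P7, such as Ccnd1 and Ccnd3. All 19 mitosis genes were above 0 in both, and 15 of them had the greater difference in whole gland. The scale shrinks differences at low levels, and 35 of the 40 genes were lower in P7 Tshbcre than in P7 whole gland. Which difference is greater thus depends on the constant added before taking logs. With a smaller constant, given at the end, the medians of the 40 genes nearly met, and those of the mitosis genes did so less. Spearman's rho between the 2 comparisons was 0.59 over the 40 genes and 0.21 over the same 13785 genes, given as a description across genes, which are not independent.

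**Figure D4:**
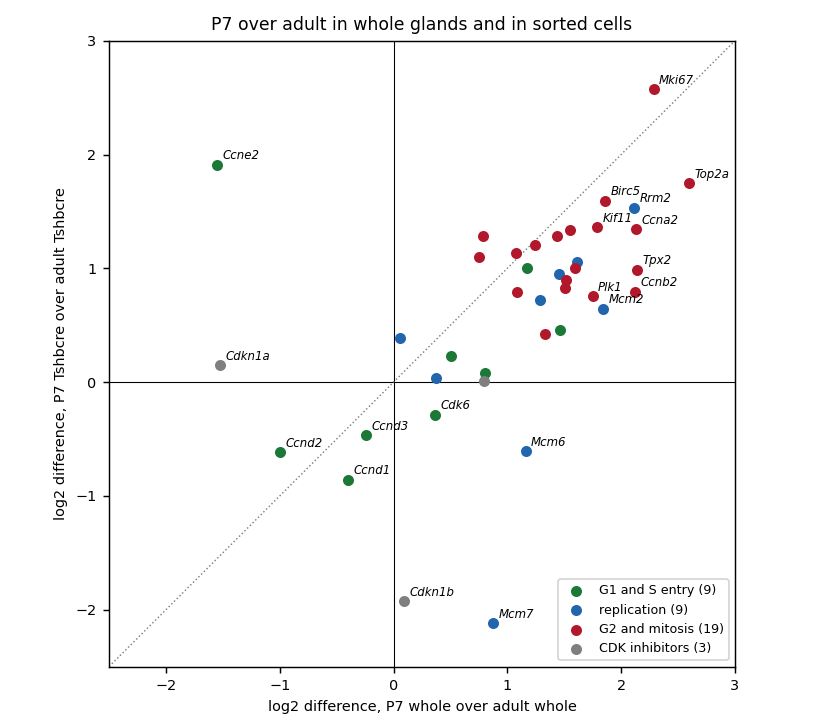
P7 over adult log2 difference of each of the 40 genes in whole gland (horizontal axis) and in Tshbcre sorted cells (vertical axis), coloured by place in the cycle. The dotted line marks equal differences. All 19 mitosis genes lie in the upper right part, 15 of them below the line, and the D-type cyclins lie in the lower left.

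At P7 the sorted cells were set against the whole gland directly. Of the 40 genes, 35 were lower in P7 Tshbcre than in P7 whole gland, with a median log2 difference of -0.76, while the median of all genes was -0.01. At 2-fold, 13 were lower (32.5%, all genes 16.1%) and 2, Ccne2 and Cdkn1a, higher (all genes 11.7%), of which Ccne2 and Mcm7 rest on a 0. By length 9 were lower (all genes 11.1%) and Ccne2 alone higher (all genes 10.2%). Cdkn1a then stood at a log2 difference of 0.13 rather than 1.27, Cdkn1b at -0.16 rather than -1.79 and Cenpf at 0.03 rather than -1.10. The summed mitosis genes of P7 Tshbcre were 53.1% of those in P7 whole gland. The summed replication genes were 35.5%, a share that the 0 of Mcm7 in P7 Tshbcre lowers. This comparison uses the P7 libraries of both comparisons above, so it is not further evidence for either. In RNA of mixed cells, fewer dividing cells and less of each transcript per dividing cell cannot be told apart.

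As sums, markers of cells that make no hormone were also lower in P7 Tshbcre than in P7 whole gland. In P7 Tshbcre the 8 endothelial markers summed to 4.05, 4.19% of the 96.7 in P7 whole gland, with Kdr at 0. The 8 mesenchymal and pericyte markers summed to 5.26, or 2.10% of 250.3, and none was at 0. The 8 stem and folliculostellate markers summed to 4.55, or 13% of 35.1, with Lcn2 at 0 and Sox2 at 0.91 against 14.1. The 8 immune markers summed to 3.70, or 10.6% of 34.9, and the 8 erythroid markers to 202.1, or 10.4% of 1940, with Klf1 at 0 in each library that lists it. The part of such cells in the mitosis genes of P7 Tshbcre was not tested. Markers of other hormone cells were not all so low. The 5 gonadotrope markers reached 425.2% of P7 whole gland, 1915 against 450.4, with Lhb alone at 1278 in P7 Tshbcre. Of these 5 markers, 3 were higher in P7 Tshbcre than in P7 whole gland and 2 were lower, also by length. Gh, the somatotrope hormone, stood at 3870 in P7 Tshbcre against 6034 in P7 whole gland. The other 3 somatotrope markers reached 24.2%, or 70.4% by length, the 3 lactotrope markers 24.7% and the 5 corticotrope and melanotrope markers 6.28%.

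Between the ages, these markers also differed. In Tshbcre the endothelial, mesenchymal, stem and immune sums were each lower at P7, at 4.05, 5.26, 4.55 and 3.70 in P7 against 17.6, 18.5, 69.0 and 45.6 in adult. Lower at P7 were 8 of 8 endothelial, 6 of 8 mesenchymal, 7 of 8 stem and 8 of 8 immune markers. The 9 thyrotrope markers summed to 12850 in P7 Tshbcre against 7774 in adult Tshbcre, and the 5 gonadotrope markers to 1915 against 4300. The erythroid sum was higher at P7 in both preparations, at 202.1 in P7 Tshbcre against 129.9 in adult Tshbcre and 1940 in P7 whole gland against 1065 in adult whole gland. By length adult whole gland stood at 1630, a ratio of 1.19 rather than 1.82. In whole gland the mesenchymal sum was 250.3 in P7 against 106.5 in adult (145.8 by length), a ratio of 2.35, or 1.72 by length. Of the 8 mesenchymal markers 7 were higher and 1 lower at P7, with 3 at 2-fold higher (2 by length). Among them Col1a1 was 57.1 against 10.3. Sox2, the progenitor marker, stood at 14.1 in P7 whole gland against 6.95 in adult whole gland, and 5 of the 8 stem markers were higher at P7 (6 of 8 by length). The stem sum was nonetheless 35.1 in P7 whole gland against 128.8 in adult whole gland, with Cyp2f2 at 1.74 against 71.1 and Lcn2 at 1.28 against 25.0. The part of these cells in the P7 over adult differences of the cell cycle genes was not tested.

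Among adult libraries the summed mitosis genes were lower than in either P7 library, although Aurka, Cdc20, Top2a and Ube2c in adult Ghcre came near P7 Tshbcre or stood between it and the other adult libraries. Over the 14 mitosis genes measured in all 6 libraries, the sums were 4.07 in adult Tshbcre, 6.09 in adult Lhbcre, 10.3 in adult Ghcre and 6.74 in adult whole gland, against 26.5 in P7 Tshbcre and 45.7 in P7 whole gland. Set against adult whole gland, which the 3 comparisons share, adult Tshbcre had 3 of 20 genes at 2-fold lower (Ccne2, Mki67 and Cdc20, all genes 11.4%) and none higher (all genes 9.13%). Each of the 3 was listed at 0 in adult Tshbcre. Adult Ghcre had 2 of 17 genes higher (Cdk4 and Aurka, all genes 12.7%) and 2 lower (Ccnd3 and Mcm4, all genes 15.4%), of which Aurka and Mcm4 rest on a 0. By length Cdk4 (0.73 rather than 1.46) and Ccnd3 (-0.78 rather than -2.44) were not 2-fold apart, and the count was 2 higher, Aurka and Birc5 (all genes 9.69%), and none lower (all genes 10.3%). Adult Lhbcre had 3 of 21 higher (Mcm2, Aurka and Cdkn1b, all genes 13.6%) and 6 lower (Ccnd1, Ccnd2, Ccnd3, Cdk4, Pcna and Mcm7, all genes 15.3%), of which Aurka, Cdk4 and Mcm7 rest on a 0. By length Aurka alone was higher (all genes 8.6%), and Ccnd1, Ccnd2, Ccnd3, Mcm7 and Cdkn1a were lower (all genes 12.5%). Mcm2 then stood at 0.37 rather than 1.06, Cdkn1b at 0.63 rather than 1.37 and Pcna at -0.38 rather than -1.38. Ccnd2 stood at 28.0 and Ccnd1 at 9.80 in adult Lhbcre, against 64.9 and 24.1 in adult whole gland.

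Genes of the same processes outside the 40 were read in the same way. Of 30 further mitosis genes, 29 reached 1 scaled FPKM in whole gland, where 19 were 2-fold higher at P7 (all genes 9.98%) and none lower. In Tshbcre 20 did, and 5 were higher (all genes 11.5%) and none lower. Most that passed were under 1 in the adult library and could not be called lower. The summed 30 genes had a P7 over adult ratio of 2.92 in whole gland and 2.01 in Tshbcre, below the ratios of the 19. Over the 21 measured in all 6 libraries, adult Ghcre summed to 44.8, above the 40 of P7 Tshbcre (50.1 and 48.3 by length). P7 whole gland stood at 73.9. Kif20a, a motor of cytokinesis, stood at 5.24 in P7 Tshbcre and 5.92 in P7 whole gland and was listed at 0 in all 4 adult libraries. Kif23, another such motor, stood at 1.08 in P7 Tshbcre against 0.13 in adult Tshbcre and at 4.55 in P7 whole gland against 0.31 in adult whole gland. Prc1, which bundles the microtubules of the dividing spindle, stood at 2.75 in P7 Tshbcre and 9.30 in P7 whole gland and was listed at 0 in adult Tshbcre and adult whole gland. Its whole-gland log2 difference of 3.365 was the largest of the 30. By length the largest was 2.791, so Prc1 in adult whole gland was then above 0.

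Of 30 further replication genes, 20 reached 1 scaled FPKM in whole gland, with 8 at 2-fold higher (all genes 9.98%) and 2 lower at P7 (all genes 9.41%, so at the background). In Tshbcre 18 did, with 7 higher (all genes 11.5%) and none lower (all genes 12.9%). Of the 30, 22 were under 1 in adult Tshbcre and 23 in adult whole gland, and these could not be called lower at P7. Lig1, the DNA ligase of the lagging strand, stood at 3.60 in P7 Tshbcre against 1.51 in adult Tshbcre, and at 6.91 in P7 whole gland with adult whole gland listed at 0. Rrm1, the partner of Rrm2, stood at 3.46 in P7 Tshbcre against 2.01 in adult Tshbcre, and at 6.09 in P7 whole gland with adult whole gland listed at 0. Fen1, a nuclease of the lagging strand, stood at 2.90 in P7 Tshbcre with adult Tshbcre listed at 0, and at 3.55 in P7 whole gland against 3.14 in adult whole gland. Adding assembled transcripts by length gave 2.83 for Lig1 and 2.68 for Rrm1 in adult whole gland, and 1.24 for Fen1 in adult Tshbcre.

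The regulators of these programmes are a separate list. Of 18 E2F, pocket protein and DREAM genes, 17 reached 1 scaled FPKM in whole gland, with 4 at 2-fold higher (all genes 9.98%) and 1 lower (all genes 9.41%). In Tshbcre 15 did, with 2 higher, near the 11.5% of all genes, and none lower (all genes 12.9%). Of the 18, 6 were under 1 in adult Tshbcre and 7 in adult whole gland, and these could not be called lower at P7. By length 1 gene was 2-fold higher in each comparison (all genes 6.16% in whole gland and 6.61% in Tshbcre). Lin37, a DREAM subunit, was listed at 0 in P7 whole gland and stood at 5.03 in adult whole gland, but it stood at 6.64 in P7 Tshbcre against 7.35 in adult Tshbcre. E2f4 and E2f6, repressor E2Fs, had annotated values of 8.92 and 6.96 in P7 Tshbcre against 6.85 and 0.82 in adult Tshbcre, and of 5.43 and 4.63 in P7 whole gland against 1.06 and 0.98 in adult whole gland. Once assembled transcripts were added by length, none of the 4 differences of E2f4 and E2f6 exceeded 0.35 in size.

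Of 15 other brakes on the cycle, 14 reached 1 scaled FPKM in whole gland, with 3 at 2-fold higher (all genes 9.98%) and 1 lower (all genes 9.41%). In Tshbcre 12 did, with 4 higher (all genes 11.5%) and 1 lower (all genes 12.9%). By length 2 were higher in whole gland (all genes 6.16%) and 1 in Tshbcre (all genes 6.61%). Cdkn1c, p57, an imprinted CDK inhibitor that marks cells leaving the cycle in the embryonic pituitary, stood at 17.9 in P7 Tshbcre against 12.0 in adult Tshbcre (0.53) and at 32.2 in P7 whole gland against 4.18 in adult whole gland (2.68). It was the brake with the largest whole-gland difference that does not rest on a 0, and assembled transcripts added nothing to it. Cdkn2d, p19, was listed at 0 in P7 whole gland and stood at 6.87 in adult whole gland, and Ccng2, an atypical cyclin of arrested cells, stood at 3.45 in P7 whole gland with adult whole gland listed at 0. Those differences were 0.17 and 0.21 with assembled transcripts added by length.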

How the data were processed

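RNA of 6 mouse pituitary libraries, 1 per group, was depleted of ribosomal RNA from an input of 250 ng, per the labels' protocols. The submitters' processing notes name FastQC, Bowtie2, Cufflinks and, as genome build, mm39. The deposited tables list transcripts with the FPKM computed by the authors, its bounds, a status and a coverage value. Deposited coverage is a constant multiple of FPKM within a file, and that constant served as relative depth. The number of reads and the use of strand are not given in the sources used here. Sequence copies and overlapping genes can share reads.

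FPKM was summed over the annotated transcripts of a gene name. A gene with a failed estimate was treated as not measured. Libraries were scaled by the median of ratios over 5795 genes at 1 FPKM or more in all 6. A pseudocount of 1 and a minimum of 1 scaled FPKM in the higher library were used. Assembled transcripts of 200 nt or more were added to the 1 named gene of their Cufflinks gene, as FPKM or in proportion to length. The length-weighted addition was added after seeing the data. Named genes outside the 40 are the 3 of each list with the largest difference in either P7 over adult comparison. Promoter windows are the first listed per gene. The members and lists were chosen with earlier results of these data known. Python 3.11.15, pandas 2.3.3, numpy 2.4.6, scipy 1.17.1 and matplotlib 3.10.9 were used. Alternatives were another pseudocount, minimum, scaling or fold, genes above 0 in both libraries, and assembled transcripts.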

Additional observations from a re-analysis of the deposited data

Results flagged for a closer look

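The genes Ccne2, Mcm6 and Mcm7 were picked out because P7 and adult stood in opposite order in whole gland and in Tshbcre sorted cells, by at least 1.5-fold in each. The difference between the preparations was not tested, since each has 1 library per age. The log2 difference, P7 over adult, was -1.55 in whole gland and 1.91 in Tshbcre for Ccne2, which was listed at 0 in P7 whole gland and in adult Tshbcre. It was 1.16 in whole gland and -0.61 in Tshbcre for Mcm6, and the Tshbcre value was 0.26 with assembled transcripts added by length. It was 0.88 in whole gland and -2.12 in Tshbcre for Mcm7, which was listed at 0 in P7 Tshbcre.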

How the results depend on the processing

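No paired analysis was possible because each group is 1 library. The count of 6 genes at least 4-fold higher in P7 whole gland was 19 with a pseudocount of 0.1 (all genes 6.8%), 10 with FPKM as deposited (4.34%) and 25 at 2-fold (9.98%). The count of 1 in Tshbcre was 15 with a pseudocount of 0.1 (all genes 8.68%), 3 with an equal sum per library (4.48%), 16 at 2-fold (11.5%), and 0 at a minimum of 5, with genes above 0 in both libraries or with assembled transcripts added by length. A pseudocount of 0.1 took the median difference of the 40 genes to 1.86 in whole gland and 1.79 in Tshbcre, and that of the mitosis genes to 2.85 in whole gland and 2.32 in Tshbcre. A minimum of 5, which drops most of the genes, gave -0.54 for the 6 genes left in Tshbcre (0.95 over the 35 at a minimum of 1), 2.21 for the 4 mitosis genes left in whole gland, -0.32 for G1 genes in whole gland and -1.92 for the 1 inhibitor left in Tshbcre. The median of all genes shifted to 0.32 in whole gland with FPKM as deposited, and to 0.14 in whole gland and 0.36 in Tshbcre with an equal sum. Signs of single genes differed in 2 of 80 values as deposited and in 3 of 80 with assembled transcripts added, either way, none of them 2-fold. Most mitosis genes lay at 1 to 5 scaled FPKM at P7 and under 1 in the adult, where depth limits the ratio and a listed 0 was not taken as absence.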
